A study of Rattus norvegicus with 10 samples.

Results

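The immediate early genes Egr1, Egr2, Egr3, Klf2, Klf4, Klf6, Klf10, Ier2, Ier3 and Dusp1 were followed in the livers of cirrhotic rats, as 10 of the 14217 genes that the arrays named by a single symbol. The genes were listed by family after earlier results of the same livers were known, and each was represented by the probe set selected on its variance over the 10 arrays. Together they had 18 probe sets. For the 6 genes with 1 probe set the variance chose nothing, and for Egr2, Klf2, Klf6 and Dusp1 it chose among 2 to 5. The closest choice was that of Klf2, where the variance was 0.112 for the probe set used and 0.109 for the next.

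The livers came from 10 male Wistar rats, each with cirrhosis from inhaled carbon tetrachloride (CCl4), so that both groups carry this injury. Vehicle was injected in 5 rats and CVX-060 in the other 5, at a dose of 10 mg/kg given weekly into the tail vein over 4 weeks. CVX-060 inhibits angiopoietin 2, an antagonist of the endothelial receptor Tie2. The RNA was of whole frozen liver, an Affymetrix rat genome expression array was run for each rat, and healthy livers were not analysed here. The rats' age and the time between the last dose and the taking of the liver were not given in the sources used here.

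Immediate early genes are transcribed within minutes of a stimulus from factors already present in the cell, and their short-lived messenger RNAs soon decay. The Egr and Klf genes encode zinc finger transcription factors, Ier2 and Ier3 encode nuclear and survival-related proteins, and Dusp1 encodes a phosphatase that switches off MAP kinases. In liver they are known to respond to injury, partial hepatectomy, growth factors, feeding and the handling of the tissue itself, and Klf2 and Klf4 are also known as flow-sensitive factors of endothelium.

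DNA elements long tied to this kind of response are the CArG box, bound by serum response factor, and the cAMP response element (CRE), TGACGTCA. RefSeq promoter windows on GRCr8 were matched for 6 of the 10 genes, and the 250 bases before each start site were searched. The CRE was found before Dusp1 and Ier2 and in 1.59% of all 33469 windows, and the CArG box before Egr1, Egr2 and Klf6 and in 1.5% of all windows. The CRE's shorter form TGACG, which overlaps the full element and was read on both strands, was found before Dusp1, Ier2, Egr1 and Egr2 and in 18.2% of all windows. The Egr binding sequence GCGNGGGCG, on either strand, was in none of the 6 windows and in 4.29% of all. The 4 windows below are shown as examples that hold a full CRE or a CArG box in front of genes whose signal varied among the rats. They are Dusp1 (chr10:17184603-17184852, plus strand), Ier2 (chr19:40399123-40399372, plus strand), Egr2 (chr20:21054442-21054691, minus strand) and Klf6 (chr17:69458479-69458728, minus strand). Each is written 5′ to 3′ on the gene's strand and ends at the base before the start, and the capitals mark the CRE of Dusp1 and Ier2 and the CArG box of Egr2 and Klf6.
Dusp1: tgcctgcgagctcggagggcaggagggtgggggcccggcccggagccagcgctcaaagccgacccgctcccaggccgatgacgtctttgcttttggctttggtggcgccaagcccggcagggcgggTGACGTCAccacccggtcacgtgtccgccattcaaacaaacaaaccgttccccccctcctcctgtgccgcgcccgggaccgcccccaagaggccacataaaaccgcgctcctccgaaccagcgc
Ier2: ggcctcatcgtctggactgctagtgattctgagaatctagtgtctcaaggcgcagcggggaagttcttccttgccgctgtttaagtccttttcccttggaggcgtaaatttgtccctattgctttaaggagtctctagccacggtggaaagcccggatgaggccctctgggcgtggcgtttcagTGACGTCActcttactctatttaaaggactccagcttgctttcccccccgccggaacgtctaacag
Egr2: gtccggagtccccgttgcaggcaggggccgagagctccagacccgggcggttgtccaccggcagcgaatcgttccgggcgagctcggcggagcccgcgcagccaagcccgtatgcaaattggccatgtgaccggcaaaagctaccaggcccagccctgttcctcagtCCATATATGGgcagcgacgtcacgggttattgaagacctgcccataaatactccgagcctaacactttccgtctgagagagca
Klf6: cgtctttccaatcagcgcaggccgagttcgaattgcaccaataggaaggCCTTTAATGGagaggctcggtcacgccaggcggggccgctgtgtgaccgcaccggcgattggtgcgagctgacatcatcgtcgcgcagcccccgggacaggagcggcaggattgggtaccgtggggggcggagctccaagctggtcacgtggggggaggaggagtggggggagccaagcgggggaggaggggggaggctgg

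With the base before the start as -1, the CRE lay from -124 to -117 in Dusp1 and from -66 to -59 in Ier2. The CArG box lay from -83 to -74 in Egr2 and from -201 to -192 in Klf6. Egr1, whose window is not printed, held CArG boxes from -105 to -96 and from -83 to -74. These matches describe the letters and were not tested for binding in the livers.

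All 10 rats were read here, while the study retained 2 replicates per treatment for its own work after checking array quality. A pair of rats, number 2 of vehicle and number 5 of CVX-060, stood apart. They scored 34.5 and 35.5 on the first principal component of all genes, which held 35.4% of the variance, and the other 8 rats scored between -26.2 and 9.74. In the same pair Cyp2c12, a female-biased liver enzyme, was highest, at log2 signals of 12.71 and 12.02 against 7.11 to 9.79 in the others, although all rats were labelled male. The Y-linked genes Eif2s3y and Uty were above background in all 10 rats, at 9.07 and 8.91 in vehicle rat 2 and 9.21 and 8.58 in CVX-060 rat 5. The differences of Ier3 and Klf6 and the median difference of the 10 genes are therefore also given without this pair. Of 9 hepatocyte markers measured, 8 were above background in all 10 rats, and the probe set of Fgb, a fibrinogen chain, was below it in all of them.

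Signal was first set against background, taken on each array as the 95th percentile of 20 probe sets of chemosensory receptor genes (olfactory, trace amine and vomeronasal). These were assumed to be little expressed in liver, which was not tested. The 90th percentile lay lower, at 4.44 to 5.20, so the limit depends on the few brightest of the 20 probe sets. The level used, the 95th percentile, lay between 5.34 and 6.06 on the log2 scale. Of the 10 genes, 7 (Egr1, Klf2, Klf6, Klf10, Ier2, Ier3 and Dusp1) were above it in every rat, as were 52.9% of all genes. Over all genes and rats, 84 of the 100 values were above background.

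Egr1, the best known factor of its family, was 5.13 to 7.30 log2 units above background. Klf4 was above it in 9 rats, the exception being vehicle rat 3. Egr2 was above it in 4 of 5 vehicle rats and in 1 of 5 CVX-060 rats, so that its values are partly at the limit of the array. With the limit at the 90th percentile, Egr2 was above it in all 10 rats. Egr3 was below background in all 10 rats, even with the limit at the 90th percentile, and its signal covered only 0.30 log2 units from the lowest to the highest rat. No direction can be read from Egr3 at this signal.

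In the order of vehicle rats 1 to 5, the log2 signal of Egr1 was 12.94, 12.12, 11.93, 12.72 and 12.71. It was 12.22, 13.04, 10.98, 11.47 and 11.06 in CVX-060 rats 1 to 5. CVX-060 rats 3, 4 and 5 were below every vehicle rat, while CVX-060 rat 2 was above all of them, so the groups overlapped. The vehicle rats had a mean of 12.49 ± 0.43 (SD, n = 5) and the CVX-060 rats one of 11.75 ± 0.87 (SD, n = 5). The difference was -0.73 (SE 0.38, 95% interval -1.58 to 0.12), with p = 0.135 by exact permutation of the rats (two-sided), which with 5 against 5 cannot give a p below 0.0079.

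Egr2, a close relative that shares the Egr DNA binding site, followed the same rats. Its log2 signals were 7.61, 6.29, 5.51, 6.50 and 5.96 with vehicle and 5.71, 8.12, 5.29, 5.54 and 4.89 with CVX-060. CVX-060 rat 2 was the highest of all 10 and vehicle rat 1 came next, and the 4 other CVX-060 rats lay within or below the range of the vehicle rats. The difference was -0.46 (SE 0.59), with an exact permutation p = 0.492. Leaving out CVX-060 rat 2 brought it to -1.02, and leaving out vehicle rat 1 to -0.15. A second Egr2 probe set was below background in all rats.

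Egr3, another factor of the family, gave 4.65, 4.35, 4.51, 4.57 and 4.50 with vehicle and 4.43, 4.35, 4.47, 4.62 and 4.45 with CVX-060. The difference was -0.05 (SE 0.08), with an exact permutation p = 0.429, at a signal below background throughout.

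**Figure D1:**
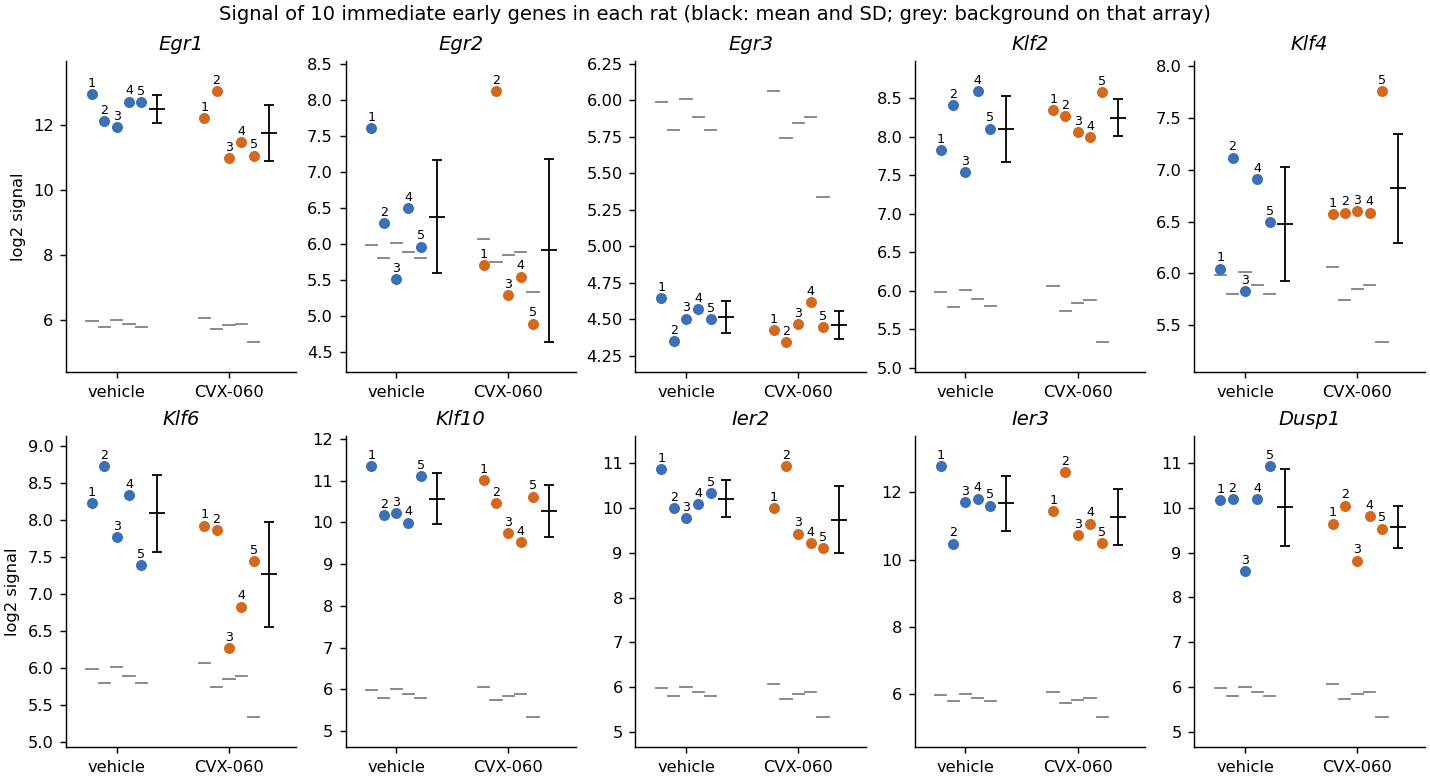
Log2 signal of the 10 genes in each rat, with a panel per gene and its own vertical axis. Points are rats, numbered within their group, the black bars give the mean and SD of 5 rats, and the grey dashes give the background on that rat's array. The groups overlapped in every panel, Egr3 lay below background in all rats, and CVX-060 rat 2 was the highest of its group for Egr1, Egr2, Ier2, Ier3 and Dusp1.

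Ier2, an immediate early response factor found in the nucleus, gave log2 signals of 10.87, 10.00, 9.77, 10.08 and 10.33 with vehicle. With CVX-060 it gave 9.99, 10.94, 9.43, 9.22 and 9.12. As for Egr1, CVX-060 rats 3, 4 and 5 were below every vehicle rat and CVX-060 rat 2 was above them. The difference was -0.47 (SE 0.34), with an exact permutation p = 0.254. It was -0.77 without CVX-060 rat 2 and -0.31 without vehicle rat 1.

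Ier3, a stress-induced regulator of cell survival, gave 12.77, 10.47, 11.70, 11.81 and 11.60 with vehicle and 11.43, 12.60, 10.72, 11.07 and 10.48 with CVX-060. Vehicle rat 1 and CVX-060 rat 2 were again the highest, and vehicle rat 2 and CVX-060 rat 5, the pair that stood apart, were the lowest. The difference was -0.41 (SE 0.46), with an exact permutation p = 0.437, and it was -0.52 without that pair. With single rats left out it ran from -0.75 without CVX-060 rat 2 to -0.14 without vehicle rat 1.

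Dusp1, the phosphatase that inactivates ERK, JNK and p38 kinases, gave 10.17, 10.19, 8.58, 10.19 and 10.92 with vehicle. With CVX-060 it gave 9.64, 10.05, 8.82, 9.81 and 9.53. Vehicle rat 3 was the lowest of all 10 and vehicle rat 5 the highest, so the CVX-060 rats lay inside the vehicle range. The difference was -0.44 (SE 0.39), with an exact permutation p = 0.333. It was -0.80 without vehicle rat 3 and -0.21 without vehicle rat 5. The second Dusp1 probe set followed the same rats (r = 0.96 over 10 rats) and differed by -0.10, with an exact permutation p = 0.762.

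Klf6, a zinc finger factor known from liver injury and stellate cell activation, had the largest difference of the 10 with the probe sets used and all rats. With the brightest probe sets Egr1 differed more, at -0.73 against -0.58, as it did without vehicle rat 2 (-0.82 against -0.66) and, together with Egr2 (-1.02), without CVX-060 rat 2 (-1.05 against -0.97). Its log2 signals were 8.23, 8.73, 7.77, 8.33 and 7.39 with vehicle and 7.92, 7.87, 6.27, 6.83 and 7.44 with CVX-060. CVX-060 rats 3 and 4 were below all vehicle rats, and the other 3 lay within the vehicle range. The vehicle rats had a mean of 8.09 ± 0.52 (SD, n = 5) and the CVX-060 rats one of 7.27 ± 0.71 (SD, n = 5). The difference was -0.82 (SE 0.35, 95% interval -1.59 to -0.05), with an unadjusted p of 0.0381 and an adjusted p of 1.0 in limma, and an exact permutation p = 0.0873.

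The 3 probe sets of Klf6 followed the same rats, at r = 0.95 and r = 0.96 with the one used. The others gave smaller differences of -0.58 (exact permutation p = 0.214) and -0.45 (exact permutation p = 0.286). The difference was -0.57 without CVX-060 rat 3 and -0.71 without the pair that stood apart.

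Klf10, a TGF-beta inducible repressor, gave 11.35, 10.18, 10.22, 9.99 and 11.11 with vehicle and 11.01, 10.47, 9.73, 9.53 and 10.62 with CVX-060. Vehicle rats 1 and 5 were the highest and CVX-060 rats 3 and 4 the lowest, with the remaining rats mixed between the groups. The difference was -0.29 (SE 0.34), with an exact permutation p = 0.444. It was -0.10 without vehicle rat 1, -0.11 without CVX-060 rat 4 and -0.48 without CVX-060 rat 1.

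Klf2 and Klf4, the flow-sensitive pair, had higher means with CVX-060. Klf2 gave 7.82, 8.41, 7.54, 8.59 and 8.10 with vehicle and 8.34, 8.27, 8.06, 7.99 and 8.58 with CVX-060. The CVX-060 rats lay inside the vehicle range. The difference was 0.15 (SE 0.20), with an exact permutation p = 0.50, and it was 0.02 without vehicle rat 3 and 0.28 without vehicle rat 4.

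The Klf2 probe set of highest mean moved little, between 8.31 and 8.59 over the 10 rats, and did not follow the one used (r = -0.10). Its difference was 0.09, with an exact permutation p = 0.0317. The pattern of Klf2 over the rats thus rests on which probe set is read.

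Klf4 gave 6.05, 7.12, 5.83, 6.91 and 6.49 with vehicle and 6.57, 6.59, 6.60, 6.59 and 7.76 with CVX-060. The first 4 CVX-060 rats were almost equal and CVX-060 rat 5 was the highest of all 10. The difference was 0.34 (SE 0.30), with an exact permutation p = 0.333. It was 0.11 without CVX-060 rat 5 and 0.18 without vehicle rat 3.

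**Figure D2:**
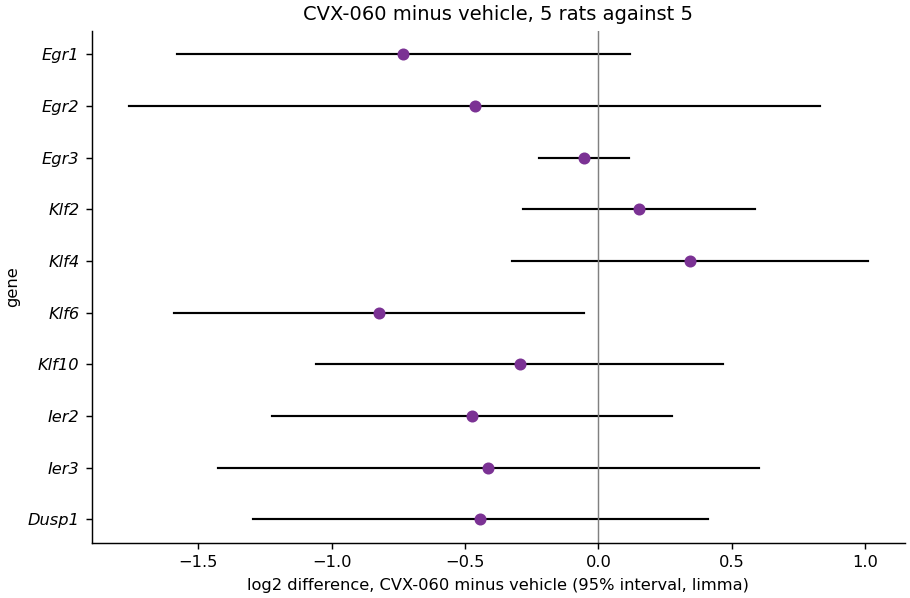
Log2 difference, CVX-060 minus vehicle, for the 10 genes, 5 rats against 5. Points are differences in means and lines are 95% intervals from limma, and the vertical line marks no difference. Of the points, 8 lie below 0 and 2 above, and the interval of Klf6 alone, from -1.59 to -0.05, does not reach 0.

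Counted together, 8 of the 10 genes had a lower mean with CVX-060 and 2 a higher one, beside 47.4% of all genes with a lower mean. The 8 include Egr3, which was below background in every rat, so that its direction cannot be read. The median difference of the 10 genes was -0.43, beside 0.01 over all genes. Since the genes were listed with earlier results known, the count is a description and no support for a shift. None passed an adjusted p of 0.05 in limma, as none of all genes did (0%). At an unadjusted p under 0.05 only Klf6 was lower, which is 1 of the 10 genes beside 1.17% of all genes.

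The median difference of the 10 genes turned on single rats. It was -0.15 without vehicle rat 1, -0.65 without CVX-060 rat 2, -0.27 without CVX-060 rat 3 and -0.27 without CVX-060 rat 5, and 8 genes were lower each time. Without the pair that stood apart it was -0.38, again with 8 genes lower.

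A higher or lower level in whole liver may come from more or fewer cells of a type or from more or less RNA per cell, which these arrays cannot tell apart. Markers of sinusoidal endothelium were higher with CVX-060 in 9 of 10 genes (median 0.28) and those of macrophages and Kupffer cells in 10 of 10 (median 0.25), and none passed an adjusted p of 0.05 in limma. The mean signal of the endothelial list was 7.72 to 8.24 in vehicle rats and 7.89 to 8.46 in CVX-060 rats. That of the macrophage list was 8.90 to 9.22 and 8.86 to 9.62. Over the 10 rats, the endothelial mean had r = -0.05 and the macrophage mean r = -0.20 with the mean of the 7 genes above background in all rats. The highest of the cell type lists were neutrophils (r = 0.40) and hepatocytes (r = 0.39). Their part in the differences was not tested.

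The same rats were high or low for several of these genes. Of the 7 genes above background in all rats, CVX-060 rat 2 was above the gene's own mean in all 7 and CVX-060 rat 3 in 0 of 7. Averaged over the 7, CVX-060 rat 3 lay at -0.80, CVX-060 rat 4 at -0.53, CVX-060 rat 5 at -0.40 and vehicle rat 3 at -0.30. Vehicle rat 1 lay highest, at 0.65, and CVX-060 rat 2 followed at 0.52. The highest and the next highest rat were thus from different groups, and the lowest 3 were CVX-060 rats.

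The same pair of highest rats, vehicle rat 1 and CVX-060 rat 2, also had the highest signals of S100a8 and S100a9, calcium-binding proteins abundant in neutrophils. S100a8 was 10.13 and 10.48 in them and 5.94 to 8.51 in the other 8 rats, and S100a9 was 10.57 and 10.93 against 6.02 to 8.83. Of 6 neutrophil markers measured, these were the ones above background in all rats, while Camp, Csf3r and Cxcr2 were above it in none and Mmp8 in 1. The mean of the list was 4.70 to 6.74 in vehicle rats and 4.83 to 7.04 in CVX-060 rats. The part of neutrophils in the pattern was not tested.

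**Figure D3:**
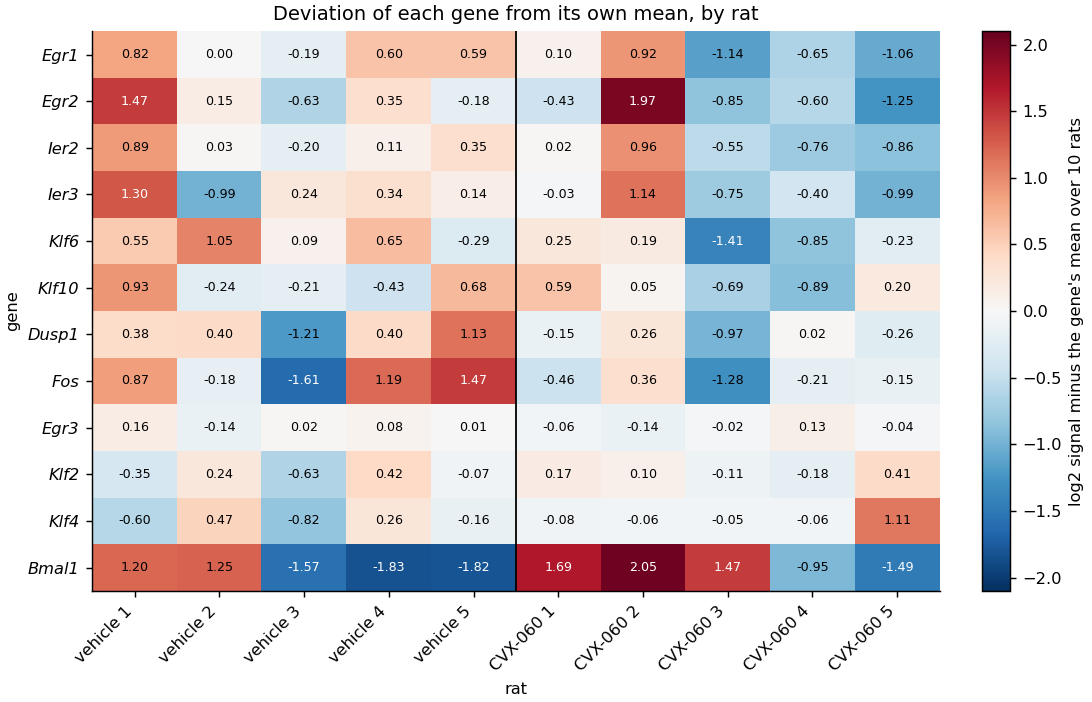
Deviation of each gene from its own mean over 10 rats, in log2 units, with genes in rows, rats in columns and red above and blue below the mean; the black line parts vehicle from CVX-060. Egr1, Egr2, Ier2 and Ier3 are all above their means in vehicle rat 1 and CVX-060 rat 2. All 4 are below them in CVX-060 rats 3, 4 and 5. Dusp1 follows Fos, Klf2 and Klf4 follow each other with the probe sets used, and Egr3 hardly varies.

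Sets of genes with like patterns were seen, and were named after their values were known. Egr1, Egr2, Ier2 and Ier3 varied together, with r between 0.82 and 0.93 in all 6 pairs over 10 rats, highest for Egr1 and Ier2. Ier3 parted from the other 3 in vehicle rat 2, at -0.99 from its mean, and in vehicle rat 3, at 0.24. Klf2 and Klf4 varied together (r = 0.87) and ran against Ier3, at r = -0.35 and r = -0.64. For Klf2 this is the pattern of the probe set used, which its probe set of highest mean did not follow (r = -0.10). Klf6 and Klf10 were in between, with r = 0.66 and r = 0.54 with Egr1. The 45 pairs had a median r of 0.29, and 29 were positive. All points share the 10 arrays and their normalization, and CVX-060 rat 2 and vehicle rat 1 weigh on the first set.

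Fos, the immediate early gene that forms AP-1 with Jun proteins, gave log2 signals of 10.45, 9.40, 7.96, 10.76 and 11.05 with vehicle. With CVX-060 it gave 9.12, 9.93, 8.29, 9.37 and 9.42. The 3 highest rats were vehicle rats, and vehicle rat 3 was the lowest of all 10. The difference was -0.70 (SE 0.55), with an exact permutation p = 0.325.

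The level of Fos was then set against that of each of the 10 genes over the 10 rats, which made 10 relations. Dusp1 followed it most closely, with Pearson r = 0.93 (permutation p = 0.0001) and Spearman rho = 0.87 (permutation p = 0.0023). Without vehicle rats 3 and 5, the farthest from the median Fos signal, r was 0.84 (permutation p = 0.0059). With each group centred on its own mean it was 0.92. Beside the group in limma, Dusp1 was higher by 0.64 (SE 0.09) per log2 unit of Fos, but with an adjusted p of 0.530 over all genes it did not pass.

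Egr1 had r = 0.68 (permutation p = 0.0312) and rho = 0.66 (permutation p = 0.0433) with Fos, and r = 0.78 without vehicle rats 3 and 5 (permutation p = 0.0224). With each group centred on its own mean it was 0.62 (permutation p = 0.0537), which no longer passed 0.05. Its adjusted p in limma was 1.0. The other 8 genes had r between 0.15 for Klf4 and 0.55 for Ier2, with permutation p between 0.103 and 0.690. All 10 were positive, which includes Egr3, below background in every rat. The share of positive r over all genes is not given here, so this count is a description only. For Klf4 the value turned to r = -0.14 without vehicle rats 3 and 5, and for Klf2 to r = -0.24 with its probe set of highest mean.

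In limma, 2 of the 10 genes, Dusp1 and Egr1, were higher with Fos at an unadjusted p under 0.05, beside 1.55% of all other genes. None of the 10 passed an adjusted p of 0.05, nor did any other gene (0%).

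**Figure D4:**
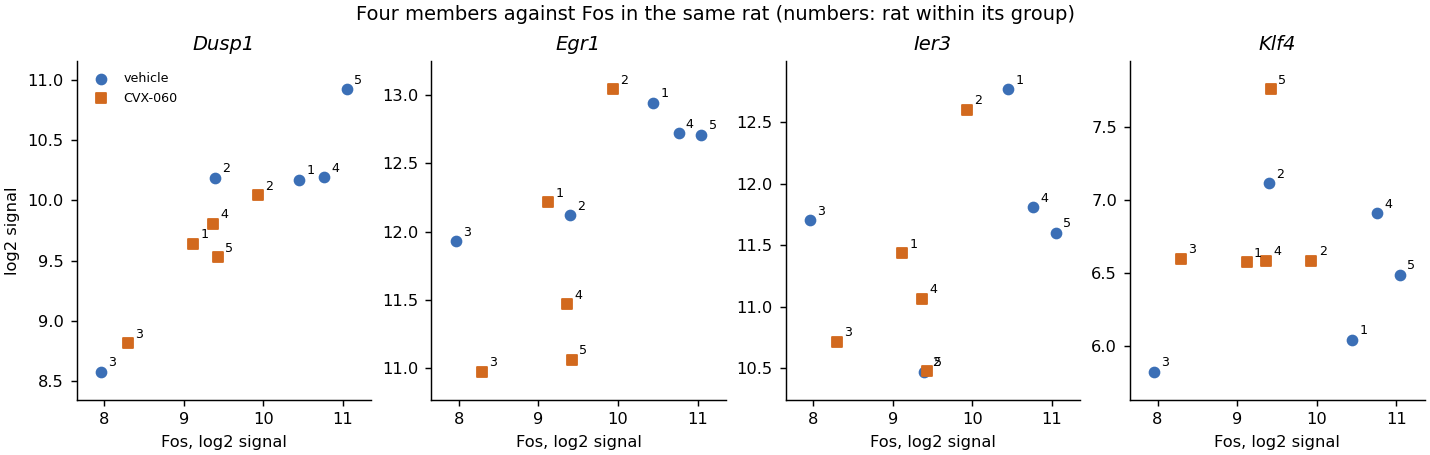
Log2 signal of Dusp1, Egr1, Ier3 and Klf4 against that of Fos in the same rat, with circles for vehicle, squares for CVX-060 and numbers for rats. Dusp1 lies along a line (r = 0.93), Egr1 less so (r = 0.68), and Ier3 (r = 0.43) and Klf4 (r = 0.15) scatter.

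Bmal1, a core activator of the circadian clock, split the rats into 2 sets. Vehicle rats 3, 4 and 5 and CVX-060 rats 4 and 5 had log2 signals of 4.87 to 5.75, and vehicle rats 1 and 2 and CVX-060 rats 1, 2 and 3 had 7.90 to 8.75. No rat lay between. The low set was not above background at the 95th percentile, so that its Bmal1 values have no certain order. At the 90th percentile Bmal1 was above background in all 10 rats. Since the rats fell into separate sets of 5, no correlation over all of them is given.

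The 10 genes did not divide the same way, since each overlapped between the 2 sets of rats. Egr1 was 11.06 to 12.72 (median 11.93) in the low set and 10.98 to 13.04 (median 12.22) in the high one. Egr2 was 4.89 to 6.50 (median 5.54) and 5.29 to 8.12 (median 6.29). Dusp1 was 8.58 to 10.92 (median 9.81) and 8.82 to 10.19 (median 10.05), and Klf10 9.53 to 11.11 (median 10.22) and 9.73 to 11.35 (median 10.47). Vehicle rat 1 and CVX-060 rat 2, the highest rats for Egr2, Ier2 and Ier3, were both in the high set, but so was CVX-060 rat 3, among the lowest for Egr1, Klf6 and Dusp1. With Bmal1 as a covariate in limma, 8 of the 10 genes were lower with CVX-060 and their median difference was -0.52.

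**Figure D5:**
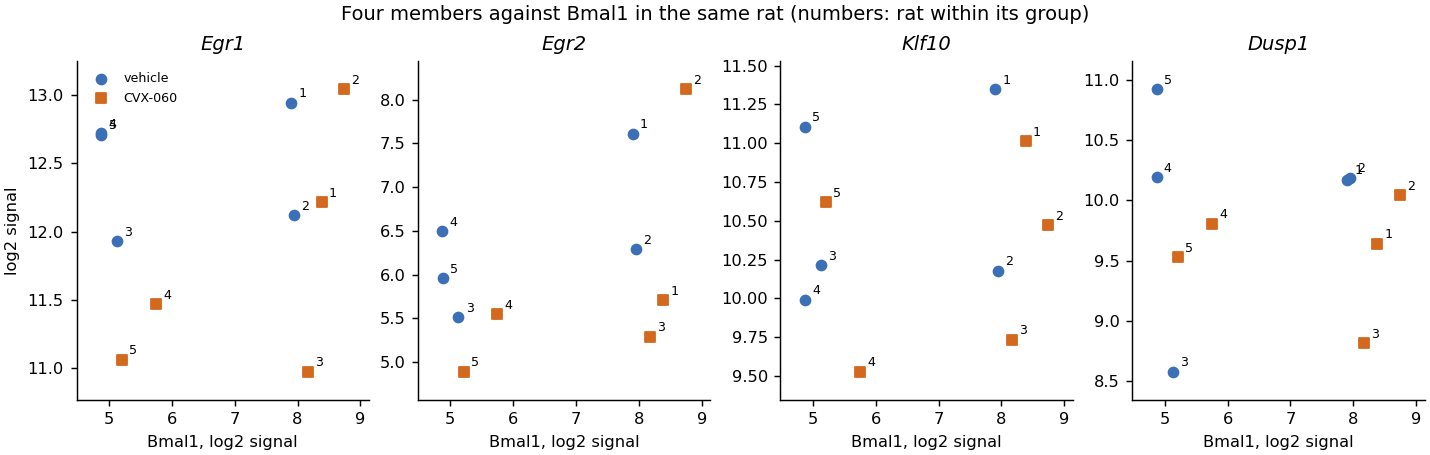
Log2 signal of Egr1, Egr2, Klf10 and Dusp1 against that of Bmal1 in the same rat, with circles for vehicle, squares for CVX-060 and numbers for rats. Rats form a set at 4.87 to 5.75 and another at 7.90 to 8.75 of Bmal1, and both groups and a wide range of each gene are found in each.

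The genes most like the set were sought among 7519 other genes above background in all rats, by Pearson r over 10 rats with the mean of the 7 genes. The highest was Jun, the AP-1 partner of Fos, at r = 0.95. Its log2 signals were 10.33, 9.73, 8.26, 10.05 and 10.36 with vehicle and 9.19, 10.37, 7.95, 8.56 and 8.58 with CVX-060. Jun was thus highest in CVX-060 rat 2, with vehicle rats 5 and 1 close behind, and lowest in CVX-060 rat 3. Dyrk1a, Sar1b, Lrig3, Rnf39, Osbpl11, Tysnd1, Adam4, G0s2 and Angptl8 followed, at r from 0.94 to 0.89. Atf3, a stress-induced factor, ranked 13 (r = 0.89) and Fos 103 (r = 0.75). Among other immediate early genes, Plk3 (r = 0.82), Junb (r = 0.79) and Csrnp1 (r = 0.78) followed too. The lowest were Gadd45g at r = 0.21, Ccn2 at -0.06, Socs3 at -0.09, Nr4a2 at -0.25 and Sgk1 at -0.30. Of the 22 above background in all rats, 18 had a positive r and 4 a negative one. The share of positive r over the 7519 genes is not given here. Among them Gadd45g ranked 2262 and Ccn2 ranked 4077, so a positive r was common.

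Of 30 other immediate early genes measured, 26 had a lower mean with CVX-060, with a median difference of -0.24, and none passed an adjusted p of 0.05 in limma. The 3 with the smallest p were Fosl2, an AP-1 subunit above background in 7 rats, at -0.37 (exact permutation p = 0.0238), Gadd45g, a stress sensor, at -0.63 (exact permutation p = 0.0794), and Maff, a small Maf factor, at -0.51 (exact permutation p = 0.159). They share the control rats with the 10 genes and are no separate evidence. Of the 30, 5 were above background in no rat.

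Of 10 other Klf genes, 8 had a lower mean (median -0.22), with Klf7 at -0.24 but below background in every rat, Klf15, a factor of fasting metabolism, at -0.36 (exact permutation p = 0.0714) and Klf9, a glucocorticoid-induced factor, at -0.29 (exact permutation p = 0.175). Of 18 genes of the MAP kinase and serum response factor route that acts upstream, 10 were lower (median -0.01). Their RNA levels do not measure the activity of the route. Its smallest p values were those of Mrtfa, a cofactor of serum response factor, at 0.12, Mapk8, which encodes JNK1, at -0.17, and Mef2d, at -0.14. Other dual specificity phosphatases were divided, with 6 of 12 lower and a median of 0.01. Among these, Dusp4 (-0.29) and Dusp10 (-0.12) were below background in every rat, and Dusp7 was at 0.28.

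Genes downstream showed no common direction. Their lists were not sorted by whether the factors raise or lower a gene, so the counts do not measure the activity of the factors. Of 7 Egr corepressors and targets, 3 were lower (median 0.00), with the corepressor Nab1 at -0.35 (exact permutation p = 0.0556), the cell cycle inhibitor Cdkn1a at 0.91 (exact permutation p = 0.127) and Nab2, above background in 3 rats, at 0.14. Of 10 endothelial targets of Klf2 and Klf4, 3 were lower and 7 higher (median 0.17), with the VEGF receptor Kdr at 0.41 (exact permutation p = 0.143), Tek, which encodes Tie2, at 0.29 (exact permutation p = 0.111), and Thbd, which encodes thrombomodulin, at 0.33 (exact permutation p = 0.175). None of these lists held a gene past an adjusted p of 0.05 in limma.

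The last lists bear on what is known to induce these genes. Of 9 glucocorticoid targets 6 were lower (median -0.05), with Klf9 at -0.29, the clock gene Per1 at -0.11 and Tat, a tyrosine-degrading enzyme, at -0.17. Of 6 heat shock genes 3 were lower (median 0.03), with the co-chaperones Dnaja1 at -0.19 and Dnajb1 at -0.16 and the small chaperone Hspb1 at 0.47. Of 15 clock genes 11 were lower (median -0.31). The repressor Nr1d1 was 6.27, 6.03, 6.47, 7.01 and 6.52 with vehicle and 5.86, 5.08, 5.49, 5.69 and 5.97 with CVX-060, without overlap. Its difference was -0.84 (exact permutation p = 0.0079, the smallest the design allows), but it was above background in only 6 rats, CVX-060 rats 1 to 4 being under it, so the size of the difference is uncertain. The same holds for Per3, at -1.14 (exact permutation p = 0.0397) and above background in 7 rats, with CVX-060 rats 1 to 3 under it. Nr1d2, above background in all rats, was at -0.59 (exact permutation p = 0.0635). None passed an adjusted p of 0.05 in limma. The clock list, which holds Bmal1 and Per1, had r = 0.77 between its mean and that of the 7 immediate early genes above background in all rats. Over the 10 rats this was the highest of the lists after that of the other immediate early genes (r = 0.91). It pools both Bmal1 sets and genes that run against each other, so the mean does not give the state of the clock. Dbp was 9.33 to 10.04 in the rats of low Bmal1 and 5.84 to 7.01 in those of high Bmal1. The part of the clock in the values of the 10 genes was not tested.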

How the data were processed

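The authors deposited log2 signals per probe set, normalized between arrays. Tools listed in the submitters' processing notes are R 3.4.0, limma 3.38.2 and affy 1.56.0, and the background correction and summary method are not given in the sources used here. Of 31099 probe sets, 20826 with a single symbol were kept, for 14217 genes, and 57 controls, 9780 unnamed ones and 436 of several symbols were not; each gene was read from its most variable probe set. Signals compare rats, not genes, since probes differ in brightness.

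CVX-060 was compared with vehicle by limma 3.58.1 in R 4.3.3 without covariates, adjusted by Benjamini-Hochberg over all genes, and for single genes by exact two-sided permutation. Relations to Fos used 100000 permutations. The steps were tested on simulated data. The members and lists were chosen with earlier results of these data known. Named genes are every member, Fos, Bmal1, the 3 genes of smallest p in each pathway list and the 10 genes most like the members' mean. Markers of stellate cells, cholangiocytes, T, B and red cells and neutrophils were also read, with list medians between -0.15 and 0.16. The labels call the rats biological replicates. The number of arrays limits the precision.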

Additional observations from a re-analysis of the deposited data

Results flagged for a closer look

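In 2 of the 24 sets of 5 rats examined, over the 10 genes, Fos and Bmal1 in each group, a single rat lay so far from the other 4 that its gap to the nearest took over 0.71 of the whole range. Chance gives such a gap in about 1 in 20 sets. Egr2 had a log2 signal of 8.117 in CVX-060 rat 2, against 4.89 to 5.71 in the other CVX-060 rats. Klf4 had a log2 signal of 7.761 in CVX-060 rat 5, against 6.57 to 6.60 in the other CVX-060 rats.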

How the results depend on the processing

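The differences were recomputed with the brightest probe set of a gene or all of its probe sets, without genes under the 40th percentile of mean signal, after quantile normalization or centring of the arrays, with array weights, a robust variance trend, the replicate block or Bmal1 as a covariate, and without each rat or the pair that stood apart. Under all 20 of these no member and no gene passed an adjusted p of 0.05. Each member that was measured kept the sign of its difference. In the fit to all probe sets each member was read from the same probe set, so its difference could not change. Nor could it with the robust variance trend or the replicate block. The 5 probe sets of Klf2 gave 0.15 with the one used and 0.09, 0.00, -0.13 and -0.03 with the others. Those at 0.00, -0.13 and -0.03 were above background in 0, 1 and 0 rats. With each rat left out in turn, 8 members were lower and their median difference was -0.65 to -0.15. Array weights gave a median of -0.15. The filter removed Egr3 and left 7 members lower. The values gave no sign that rats of the same number were pairs. Their correlations were -0.17 to 0.15, and 1 of 10 rats correlated best with its own number. With the replicate block the median stayed at -0.43 with 8 members lower, which the balanced design fixed, and 0 passed. With background at the 90th and 99th percentile, 9 and 6 members were above it in all rats. The relation of Klf4 to Fos turned to r = -0.14 without the 2 rats farthest from the median Fos signal, and that of Klf2 to r = -0.24 with the probe set of highest mean. Egr1 had r = 0.62 (permutation p = 0.0537) with each group centred. The causes were not tested.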
